A study of Mus musculus with 7 samples.

Results

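MicroRNA gene loci of the mouse autosomes were examined for 2 histone marks in globose basal cells, a progenitor population that divides and rebuilds the neurons and supporting cells of the olfactory epithelium. A locus was any gene on chromosomes 1 to 19 of the RefSeq gene table (GRCm38) whose symbol begins with Mir or Mirlet followed by a digit, widened by 1 kb on each side. This rule took 1103 of the 47042 genes of the table on these chromosomes. Of these, 753 lay inside protein-coding genes, 344 lay outside them and 6 overlapped one in part. By gene type 1090 were microRNA genes, with a median length of 81 bp and a median window of 2081 bp. The other 13 were long host gene transcripts such as Mir9-3hg, whose windows are longer, and they are also given apart. MicroRNA genes often sit in clusters: 822 loci had a window to themselves, and 281 shared overlapping windows with a neighbour, so that all loci formed 893 separate groups of windows.

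Chromatin immunoprecipitation and sequencing was done with an antibody to H3K27me3 (2 libraries) and with an antibody to H3K27ac (2 libraries), and 3 input libraries had no antibody. All libraries came from adult wild-type mice killed 7 to 10 days after a lesion of the olfactory epithelium with methimazole, a drug that strips the epithelium and sets off its regeneration. Cells of 3 mice were pooled for each ChIP replicate, and globose basal cells were enriched from the suspension by magnetic selection for c-Kit, so each library is an average over many cells of a preparation that may hold other cells. No unlesioned or mutant group was analysed here, the comparison is between marks and between loci, and the separate pools are taken as replicates.

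H3K27me3 is deposited by Polycomb Repressive Complex 2 and is found over silenced developmental genes. H3K27ac, on the same lysine, marks active promoters and enhancers, and a single histone tail cannot carry both at that residue. A microRNA is cut from a hairpin in a longer primary transcript, which is either the microRNA's own or that of a host gene, and the mature strand recognises messenger RNAs mainly through its seed, bases 2 to 8. The promoter of a primary transcript can lie many kilobases from the hairpin, and a window of 1 kb around the hairpin then does not include it.

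Mature sequences from RefSeq (GRCm38.p6) were matched by symbol for 923 of the 1090 microRNA genes. The 3 genes for miR-9 are shown first, because they encode the same mature strands and yet carried different marks. In these hairpins capitals mark the mature strands from each arm.
Mir9-1 (chr3:88215598-88215686, plus strand): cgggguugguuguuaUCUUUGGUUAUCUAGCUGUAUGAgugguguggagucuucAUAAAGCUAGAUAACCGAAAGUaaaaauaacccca
Mir9-2 (chr13:83738814-83738885, plus strand): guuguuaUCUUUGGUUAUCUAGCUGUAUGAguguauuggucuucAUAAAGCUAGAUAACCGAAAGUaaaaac
Mir9-3 (chr7:79505264-79505353, plus strand): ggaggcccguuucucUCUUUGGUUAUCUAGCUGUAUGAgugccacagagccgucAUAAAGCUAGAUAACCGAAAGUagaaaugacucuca
The mature strands are the same in all 3 hairpins.

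The next mature sequences belong to the families on which the results turn, with the seed in capitals. The first group lies in Hox clusters and carried H3K27me3, and it has 2 seeds.
miR-10a-5p: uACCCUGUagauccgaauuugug
miR-10b-5p: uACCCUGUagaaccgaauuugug
miR-196a-5p: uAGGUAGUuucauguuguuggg
miR-196b-5p: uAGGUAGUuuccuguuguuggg
The second group is neuronal and carried H3K27me3 at most of its genes, in part together with H3K27ac.
miR-132-3p: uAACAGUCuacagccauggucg
miR-212-3p: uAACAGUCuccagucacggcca
miR-7a-5p: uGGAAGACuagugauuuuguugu
miR-7b-5p: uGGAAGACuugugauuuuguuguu
miR-129-5p: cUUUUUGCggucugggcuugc
The third group is epithelial and carried H3K27ac at every gene shown. The miR-200 family has 2 seeds, and miR-183, miR-96 and miR-182 come from 1 cluster.
miR-200a-3p: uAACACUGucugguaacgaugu
miR-141-3p: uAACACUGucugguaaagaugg
miR-200b-3p: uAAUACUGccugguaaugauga
miR-200c-3p: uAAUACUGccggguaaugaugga
miR-429-3p: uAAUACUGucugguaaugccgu
miR-183-5p: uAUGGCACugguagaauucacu
miR-96-5p: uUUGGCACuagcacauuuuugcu
miR-182-5p: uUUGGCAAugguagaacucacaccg
The fourth group shares the miR-34 seed and is known from multiciliated cells, and Mir34b, Mir449a and Mir449c carried H3K27me3 where Mir34a did not.
miR-34a-5p: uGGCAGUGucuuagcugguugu
miR-34b-5p: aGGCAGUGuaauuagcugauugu
miR-449a-5p: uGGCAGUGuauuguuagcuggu
miR-449c-5p: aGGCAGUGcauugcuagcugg
The last group has the let-7 seed, at no gene of which H3K27me3 was called.
let-7a-5p: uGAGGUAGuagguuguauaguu
let-7e-5p: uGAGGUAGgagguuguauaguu
let-7i-5p: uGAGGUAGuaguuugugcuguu

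Each library was represented by the broad peaks that the authors called in it, between 64279 and 95749 peaks per library, covering 86.1 to 111 Mb. The files hold no read totals, so depth is unknown, and the lack of a peak holds for the authors' threshold and for that depth only. A locus is said to carry a mark when at least 1 base of its window was covered in replicate 1 and at least 1 in replicate 2. Among the markers of globose basal cells and neuronal progenitors, Kit, which encodes the antigen used for selection, and Neurog1, a transcription factor of neuronal progenitors, carried both H3K27me3 and H3K27ac. H3K27me3 was called at 1 of 4 markers of mature neurons, 1 of 4 of sustentacular cells, 4 of 5 of horizontal basal cells, 0 of 4 of leukocytes and 1 of 4 of mast cells. H3K27ac was called at 4, 4, 2, 2 and 0 of these markers in the same order, and the part that other cells have in the results below was not tested. A window with both marks can reflect both in the same cells or each in different cells, which cannot be told apart in pooled cells.

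H3K27me3 was found at 192 microRNA loci (17.4%) and H3K27ac at 290 (26.3%). As a background the autosomes were tiled with 1173367 windows of the median locus length, of which 5.77% carried H3K27me3 and 6.81% H3K27ac. The shares at microRNA loci were thus higher than the tiled shares for both marks, and no test was made of this difference. At 2608 small nucleolar, small nuclear and transfer RNA genes widened in the same way, 7.25% carried H3K27me3 and 15.3% H3K27ac. At 20665 protein-coding genes, whose windows are far longer, 39.7% carried H3K27me3 and 69.5% H3K27ac. With peaks held to a −log10 q of at least 2, 101 loci carried H3K27me3, against 2.34% of tiled windows, and 232 carried H3K27ac, against 4.63%. At a −log10 q of at least 5 the counts were 28 loci against 0.422% of tiled windows for H3K27me3, and 151 loci against 2.1% for H3K27ac.

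The replicates differed in how many loci they reached. H3K27me3 peaks lay at 351 loci (31.8%) in replicate 1 and 212 (19.2%) in replicate 2, and the 192 shared loci were 54.7% of the first set and 90.6% of the second. H3K27ac peaks lay at 405 loci (36.7%) in replicate 1 and 331 (30.0%) in replicate 2, and the 290 shared loci were 71.6% and 87.6% of these sets. In each mark the replicate 2 loci were mostly among the replicate 1 loci. Of the tiled windows, 11.1% and 8.59% had a peak of the H3K27me3 replicates, and 10.2% and 8.4% had one of the H3K27ac replicates. The mean number of covered bases per locus was 406 and 321 in the H3K27me3 libraries, against 464 and 365 in the H3K27ac libraries. The groups overlapped, and the difference of the means of 363 ± 60.2 and 415 ± 69.7 bases (SD, n = 2 libraries each) was -51.4 bases, with an exact two-sided permutation p of 0.667. Without the long host transcripts the difference was -112 bases with an exact permutation p of 0.333, which is the smallest value that 2 libraries against 2 can give.

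Both marks were called at 66 loci (5.98%), against 0.995% of tiled windows. The share was 6.11% inside protein-coding genes, against 1.52% of tiled windows there, and 5.52% outside, against 0.625%. At 58 of the 66, at least 1 base was covered in all 4 libraries, with a median of 814 such bases. H3K27me3 alone was called at 126 loci and H3K27ac alone at 224. The remaining 687 loci (62.3%) had neither call, and 473 (42.9%) had no peak in any of the 4 libraries.

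Pooled over all distances from gene starts, position relative to protein-coding genes went with the marks in opposite directions. H3K27me3 was called at 16.1% of the 753 loci inside protein-coding genes and at 19.8% of the 344 loci outside. In tiled windows the order was the other way, with 6.78% inside and 5.07% outside. H3K27ac was called at 28.0% of the loci inside and at 21.8% of the loci outside, against 11.2% and 3.79% of tiled windows. Both libraries of a mark gave the same sign, with inside minus outside differences of -2.62 and -3.72 percentage points for H3K27me3 and 11.8 and 7.85 points for H3K27ac. The H3K27ac difference, 6.22 points where both libraries were required, turned to -2.08 points with peaks of −log10 q of at least 5 and to -1.05 points when the flanks were left out, so its direction depends on the threshold and on the window. The H3K27me3 difference, -3.7 points, kept its sign under every alternative of threshold, window, members and libraries tried. Neither difference kept its sign in every class of distance from a gene start, as the shares by distance show.

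**Figure D1:**
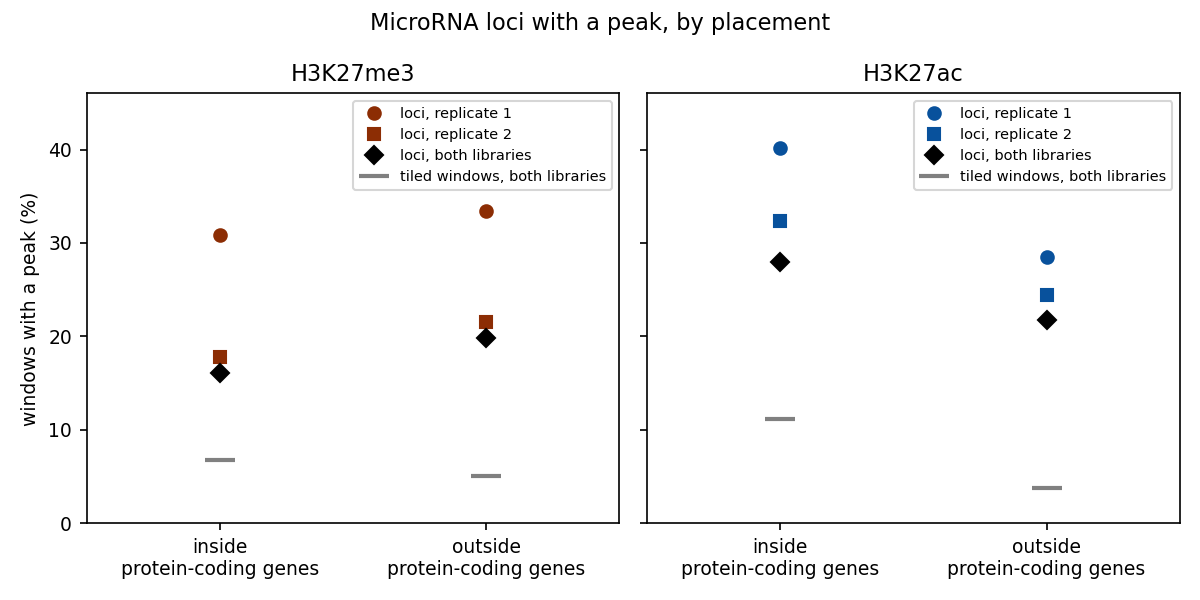
Share of microRNA loci with a peak (vertical axis, %), inside and outside protein-coding genes, for H3K27me3 (left panel) and H3K27ac (right panel). Circles and squares are replicates 1 and 2, diamonds are loci with peaks of both replicates, and grey bars are tiled windows with peaks of both. H3K27me3 points are lower inside (16.1% for both replicates) than outside (19.8%), and H3K27ac points are higher inside (28.0%) than outside (21.8%).

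Both marks were called more often the closer a locus lay to a protein-coding transcription start in the table used here. The table has a start for 16457 genes and for the hosts of 612 of the 753 loci inside protein-coding genes. A distance is therefore an upper limit, and loci in the farther classes can lie closer to a start that was not used here. For the 73 loci within 1 kb, 146 at 1 to 5 kb, 238 at 5 to 20 kb and 611 over 20 kb away, H3K27me3 was called at 34.2%, 21.2%, 18.5% and 14.2%. Tiled windows in these classes gave 24.9%, 13.6%, 8.27% and 4.45%. H3K27ac was called at 93.2%, 45.9%, 26.9% and 13.6% of these loci, against 59.8%, 20.8%, 10.2% and 4.19% of tiled windows. The order of the classes was thus the same at microRNA loci and in tiled windows, and in each class the microRNA loci had the higher share of either mark. Both marks together were called at 30.1%, 10.3%, 4.62% and 2.62% of loci, against 14.1%, 3.72%, 1.18% and 0.516% of tiled windows. The same classes were read separately for the 58, 115, 188 and 370 loci inside protein-coding genes and the 11, 31, 50 and 239 outside. H3K27me3 was called at 36.2%, 21.7%, 13.8% and 12.7% of the inside loci, against 27.3%, 19.4%, 36.0% and 15.9% of the outside loci. H3K27ac was called at 93.1%, 44.3%, 23.9% and 14.6% of the inside loci, against 90.9%, 51.6%, 38.0% and 12.1% of the outside loci. The sign of inside minus outside thus differed between classes for both marks, H3K27me3 being higher inside in the nearest 2 classes and H3K27ac in the nearest and the farthest.

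**Figure D2:**
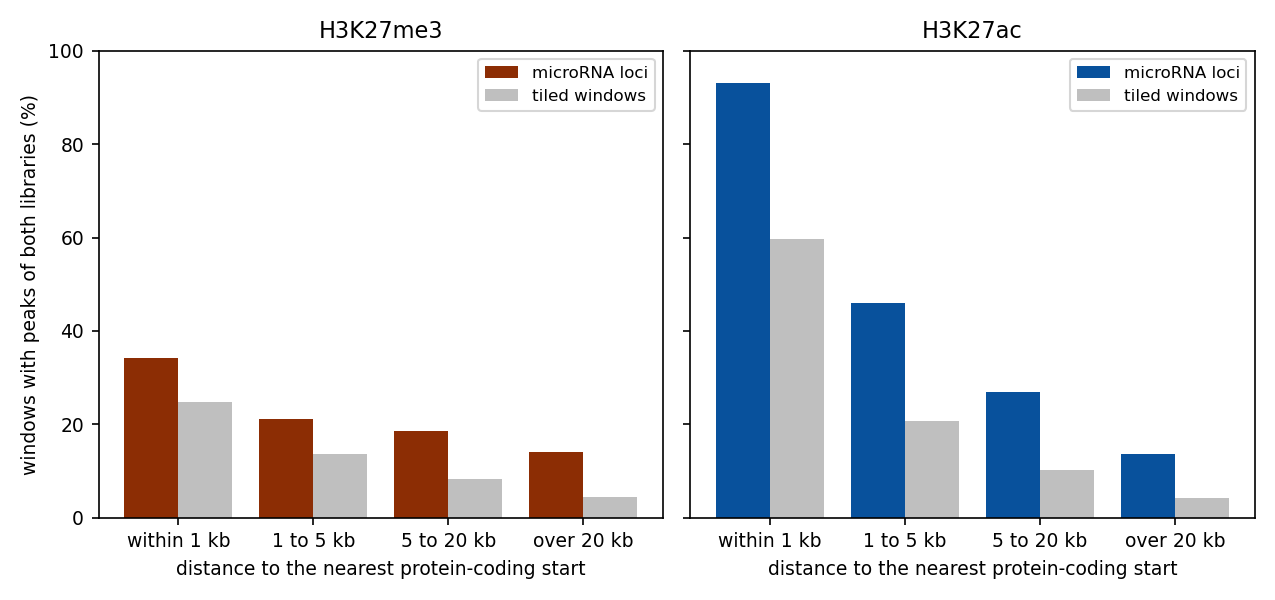
Share of windows with peaks of both libraries (vertical axis, %) by distance of the window's gene or centre from the nearest protein-coding start, for H3K27me3 (left) and H3K27ac (right). Coloured bars are microRNA loci and grey bars are tiled windows. H3K27me3 is called at 34.2% of loci within 1 kb and 14.2% over 20 kb, and H3K27ac at 93.2% and 13.6%.

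For loci inside a gene and over 2 kb from its start, the mark at the host's start went with the mark at the locus. H3K27me3 was called at 48 of 227 loci (21.1%) whose host start carried H3K27me3, against 19 of 308 (6.17%) whose host start did not. H3K27ac was called at 105 of 404 loci (26.0%) whose host start carried H3K27ac, against 6 of 131 (4.58%) whose host start did not. The same comparison was not made for tiled windows inside genes, so the pattern is not shown to be particular to microRNA loci. Taken singly, the H3K27me3 replicates had peaks at 75 and 50 of the 227 loci with a marked host start, against 63 and 21 of the 308 without. The 19 of 308 thus rests on replicate 2, since replicate 1 alone had peaks at 63 of these 308 loci. The classes of host start were kept the same in these counts. The H3K27ac replicates had peaks at 171 and 129 of the 404 loci, against 8 and 6 of the 131. At the 77 loci within 2 kb of the host's start the shares were 29.9% for H3K27me3 and 88.3% for H3K27ac. Orientation to the host was compared for only a part of the 753 loci inside protein-coding genes. In that part, H3K27me3 was called at 14.5% of 62 loci antisense to their host and 14.9% of 369 sense loci. H3K27ac was called at 19.4% of these antisense and 25.2% of these sense loci.

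Peaks were densest at the microRNA gene itself. Inside protein-coding genes, the 500 bases nearest the gene's centre had H3K27me3 peaks over 16.9% and 10.6% of bases in the H3K27me3 replicates, and the stretch 9 to 10 kb away had 9.67% and 7.77%. The same stretches had H3K27ac peaks over 25.2% and 18.5% near the centre and 14.3% and 11.2% away from it. Outside protein-coding genes the values were 20.1% and 15.4% near and 12.1% and 9.7% away for H3K27me3, and 19.7% and 17.1% near and 10.6% and 8.31% away for H3K27ac. All 4 libraries were thus higher near the gene than away from it, in both placements.

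**Figure D3:**
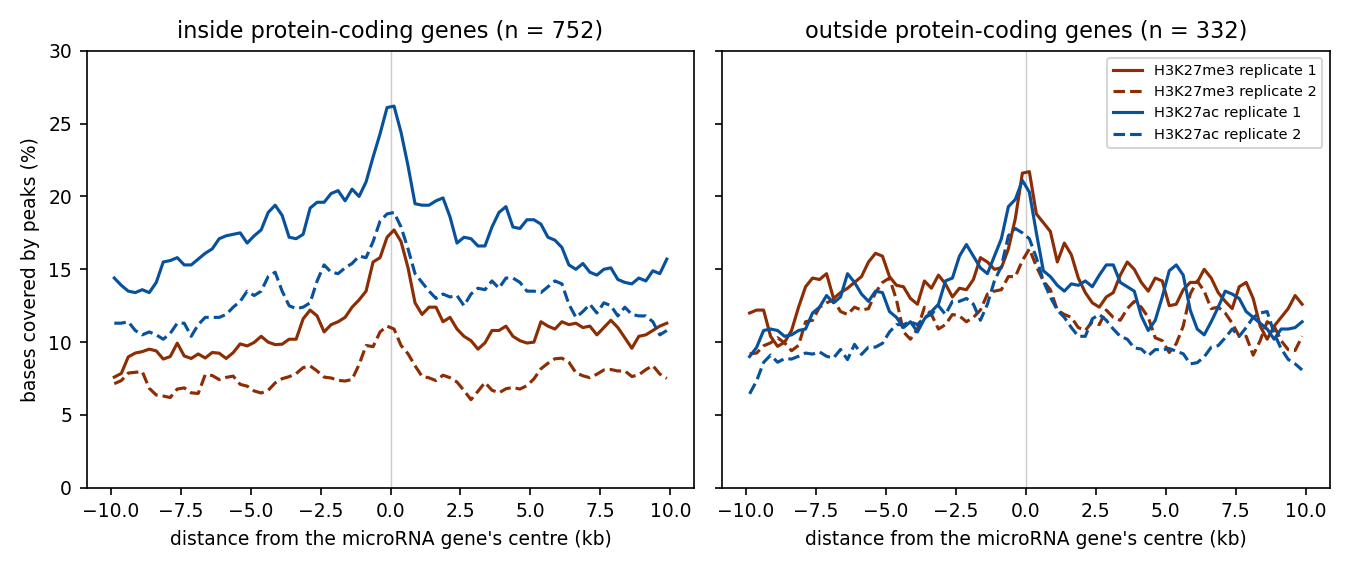
Share of bases covered by peaks (vertical axis, %) in bins of 250 bases by distance from the centre of the microRNA gene (horizontal axis, kb, in the direction of the genome's coordinates), inside (left) and outside (right) protein-coding genes. Solid and dashed lines are replicates 1 and 2. Each line peaks close to the centre, and inside protein-coding genes both H3K27ac lines are above both H3K27me3 lines except in the last 2 bins at the right edge, while the 4 lines lie close together outside.

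Hairpin base composition also went with both marks. The 879 loci with a hairpin sequence were ordered by GC content and split into 4 classes of about equal size, and from low to high GC H3K27me3 was called at 10.0%, 15.4%, 23.4% and 27.3% and H3K27ac at 10.5%, 22.2%, 34.4% and 49.5%. In the same classes 0.909%, 2.71%, 6.42% and 21.4% of loci lay within 1 kb of a protein-coding start of the table. The part of that proximity in the trend was not tested.

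MicroRNA numbers are assigned in order of registration, so low numbers hold most of the long known families. Loci with numbers below 400 carried H3K27me3 at 24.5% and H3K27ac at 25.3% of 277. Those of 400 or more but below 1000 include most of the Sfmbt2 cluster and part of the Dlk1-Dio3 region, both described below. These loci carried H3K27me3 at 10.7% and H3K27ac at 8.12% of 197. Loci with numbers of 1000 or higher carried them at 16.4% and 32.4% of 629. In these last loci 8.27% lay within 1 kb of a protein-coding start of the table used here, against 4.69% of those with numbers below 400. Among loci over 5 kb from such a start, H3K27ac was called at 19.5%, 2.33% and 21.9% of the 3 classes, from low to high numbers. H3K27me3 was called at 23.1%, 8.14% and 14.5% of them. The part of start proximity in these differences was not tested.

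The strongest H3K27me3 enrichment at microRNA loci was mostly at Hox clusters and neuronal loci. Fold enrichment is the authors' value for a peak over its background, a linear ratio, and is given here for the strongest peak in the window. Mir196b (chr6:52230081-52230165), between Hox genes, ranked first, with 15.2-fold and 9.48-fold enrichment in the H3K27me3 replicates. The other 11 best-ranked window groups were those of Mir9-3hg, Mir10a, Mir615, Mir196a-2, Mir3093 with Mir9-1, Mir10b, Mir670hg, Mir124-2hg, Mir6546, Mir212 and Mir124a-1hg. Mir6546, in Fcgr3, is neither a Hox cluster locus nor in the neuronal list. Mir9-3hg, Mir670hg, Mir124-2hg and Mir124a-1hg are host transcripts, whose longer windows give more room for a strong peak. Of the 12, 1 had a protein-coding start of the table used here within 1 kb, and 8 lay outside protein-coding genes.

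The strongest H3K27ac enrichment was at other loci. Mirlet7i (chr10:122985640-122985724), a let-7 gene outside protein-coding genes, had 29.8-fold and 15.6-fold enrichment in the H3K27ac replicates, and Mir207, at the start of the heat shock protein gene Dnaja1, had 24.1-fold and 19.8-fold. The other 10 best-ranked were Mir1893, Mir1945, Mir1938, Mir760, Mir5131, Mir1931, Mir7655, Mir5627, Mir7666 and Mir5620. Of the 12, at least 6 lay within 1 kb of a protein-coding start, since not every gene has a start in the table used here (Mir1893, on chromosome 18, has no distance), 8 lay inside protein-coding genes and 9 had numbers of 1000 or higher.

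The 8 best-ranked loci with both marks were Mir670hg, Mir5620, Mir5130, Mir3109, Mir212, Mir96, Mir7050 and Mir1966. Mir5130 (chr14:102982549-102982632), at the start of Kctd12, had 5.82-fold and 4.4-fold H3K27me3 enrichment and 7.79-fold and 7.51-fold H3K27ac enrichment, with 1580 bases of its window covered in all 4 libraries. Mir5620, in Clcn4, had H3K27me3 peaks of 4.83-fold and 4.07-fold that reached only 119 and 75 bases into the window, and H3K27ac peaks of 15.8-fold and 13.4-fold over most of it. The long window of Mir670hg had 20153 and 35574 bases covered in the H3K27me3 replicates, 1980 and 952 in the H3K27ac replicates and 538 in all 4, so that H3K27me3 extended much further there.

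The lists that follow group loci by the role of their microRNA. Over all 1103 loci the median of covered bases was 0 in each library, and 17.4% carried H3K27me3 and 26.3% H3K27ac. All 6 microRNA genes of the Hox clusters, which act with their neighbours in patterning along the body axis, carried H3K27me3 and 0 carried H3K27ac. Mir10a in Hoxb3 (chr11:96317165-96317274) had 11.2-fold and 8.64-fold H3K27me3 enrichment, with 98 bases of H3K27ac in replicate 1 and 0 in replicate 2. Mir615, in Hoxc5, had 13.9-fold and 7.41-fold H3K27me3 enrichment over all 2092 bases of its window in both replicates. Mir10b, Mir196a-1 and Mir196a-2 had 9.89-fold to 10.4-fold enrichment in replicate 1 and 6.33-fold to 7.72-fold in replicate 2.

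Of 23 neuronal loci, 17 carried H3K27me3, 9 carried H3K27ac and 7 carried both. The median of covered bases was 1290 and 1360 in the H3K27me3 replicates and 0 in both H3K27ac replicates. MiR-124 is among the most abundant microRNAs of neurons and promotes neuronal differentiation, and all 3 of its genes carried H3K27me3. Mir124a-1 had 9.58-fold and 6.65-fold enrichment, Mir124a-2 had 12.3-fold and 5.86-fold, and Mir124a-3 had 9.33-fold and 7.04-fold. Mir124a-3 also had weak H3K27ac peaks of 3.3-fold and 2.95-fold, while the other two had no H3K27ac peak.

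The 3 genes of miR-9, which restrains neural progenitors and favours their differentiation, did not carry the same mark. Mir9-3 had 11.7-fold and 8.39-fold H3K27me3 enrichment over all 2090 bases of its window, and no H3K27ac peak in either library. Mir9-1 had 10.8-fold and 7.25-fold H3K27me3 enrichment over all 2089 bases and likewise no H3K27ac peak. Mir9-2 had no H3K27me3 peak in either library and 10.5-fold and 8.43-fold H3K27ac enrichment over 1249 and 2072 bases. The nearest base covered in both H3K27me3 libraries lay 5.8 kb from Mir9-2, and the nearest covered in both H3K27ac libraries lay 37.0 kb from Mir9-1. The 3 hairpins printed above give the same mature miR-9 strands, so the sequence of the mature product does not tell these loci apart.

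The remaining neuronal loci ranged between these patterns. Mir132 and Mir212, neighbours induced by neuronal activity, shared peaks of both marks, with 10.1-fold and 6.41-fold H3K27me3 enrichment and 5.89-fold and 4.84-fold H3K27ac enrichment. Mir137, known for its part in neuronal maturation, had 6.87-fold and 4.63-fold H3K27me3 enrichment and 3.77-fold and 3.63-fold H3K27ac enrichment. Mir129-1 and Mir129-2 carried H3K27me3 with no H3K27ac peak. Of the genes for miR-7, Mir7-2 and Mir7b carried H3K27me3, at 6.99-fold and 4.05-fold and at 4.72-fold and 3.75-fold, while Mir7-1 in the housekeeping gene Hnrnpk had no peak of either mark. Mir128-1, Mir138-1 and Mir218-1 also had no peak in any library.

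Of the 10 loci of the olfactory and epithelial list, 3 carried H3K27me3 and 9 carried H3K27ac. The miR-200 family maintains epithelial identity and is known for its part in olfactory neurogenesis. Its cluster of Mir200a, Mir200b and Mir429 on chromosome 4 lay under a single H3K27ac peak of 12.2-fold and 8.37-fold, and its cluster of Mir141 and Mir200c on chromosome 6 under 1 of 13.0-fold and 9.12-fold. None of the 5 windows had an H3K27me3 peak in either library, and in all 5 every base was covered in both H3K27ac libraries.

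The sensory organ cluster of Mir183, Mir96 and Mir182 (chromosome 6) carried both marks in part. Mir183 and Mir96 had H3K27me3 peaks of 5.43-fold and 3.8-fold, and Mir182, a few kilobases away, had 3.52-fold in replicate 1 only. All 3 had H3K27ac enrichment of 10.5-fold and 9.07-fold. Mir203, which limits proliferation in stratified epithelia, had 3.75-fold and 4.03-fold H3K27me3 enrichment and 7.67-fold and 6.15-fold H3K27ac enrichment. Mir205, a microRNA of basal epithelial cells, had an H3K27ac peak of 4.19-fold in replicate 2 only, and its host transcript Mir205hg carried H3K27ac in both replicates over 1483 and 2846 bases.

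Of the 6 loci of the multiciliated cell list, 5 carried H3K27me3 and 3 carried both marks. The 6 loci formed only 3 groups of overlapping windows. With peaks of −log10 q of at least 2, 3 carried H3K27me3 and 2 carried H3K27ac, and at 5 the counts were 0 and 0. Mir34b and Mir34c had H3K27me3 peaks of 6.92-fold to 7.06-fold in replicate 1 and 4.51-fold in replicate 2, and H3K27ac peaks of 5.52-fold and 3.61-fold. Mir449c, in Cdc20b, had 5.53-fold and 3.59-fold H3K27me3 enrichment and weaker H3K27ac peaks of 3.3-fold and 2.75-fold. Mir34a, a p53 target with the same seed, had no H3K27me3 peak and an H3K27ac peak of 2.75-fold in replicate 2 only.

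**Figure D4:**
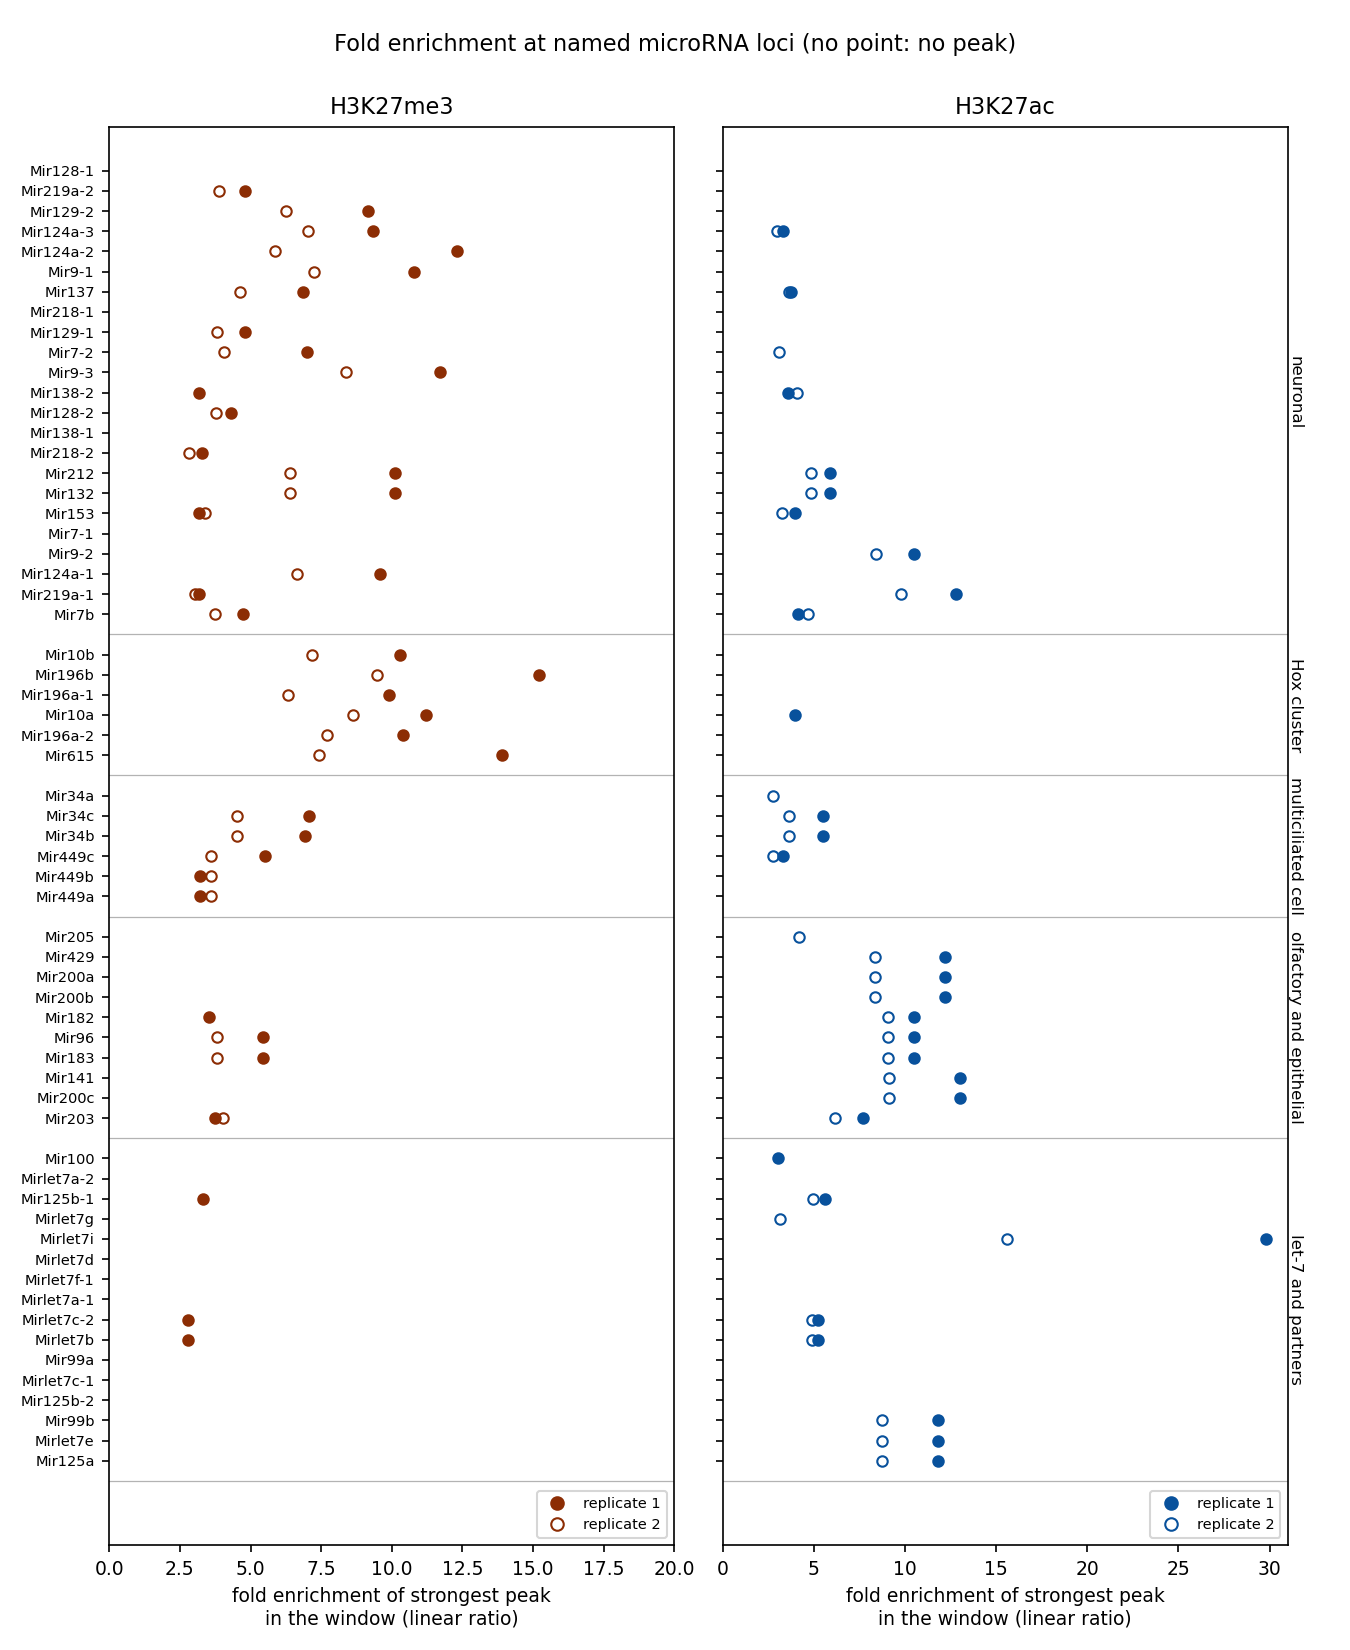
Fold enrichment of the strongest peak in the window (horizontal axes, linear ratio) at each locus of 5 lists, for H3K27me3 (left panel) and H3K27ac (right panel), with filled points for replicate 1 and open points for replicate 2 and no point where there was no peak. Hox cluster loci have H3K27me3 points between 6.33-fold and 15.2-fold, loci of the miR-200 family have H3K27ac points only, and Mir9-2 stands apart from Mir9-1 and Mir9-3.

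The let-7 family restrains proliferation and favours differentiation, and its list includes the partners miR-99, miR-100 and miR-125 that share its clusters. Of 16 loci, 0 carried H3K27me3 and 7 carried H3K27ac. Besides Mirlet7i, Mirlet7e had 11.8-fold and 8.76-fold H3K27ac enrichment together with its neighbours Mir99b and Mir125a, all inside Spaca6. Mirlet7b and Mirlet7c-2 had an H3K27me3 peak of 2.8-fold in replicate 1 only, and H3K27ac enrichment of 5.24-fold and 4.88-fold. The cluster of Mirlet7a-1, Mirlet7d and Mirlet7f-1 on chromosome 13 had no peak in any library. Over the sequence table, 11 loci gave a mature strand with the let-7 seed, of which 0 carried H3K27me3 and 4 carried H3K27ac.

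The list of clusters linked to proliferation held Mir17 to Mir92-1, Mir106b to Mir25 and the miR-15 and miR-16 genes. Neither mark was called at any of its 13 loci by the rule of both libraries. Mir17 and its 5 neighbours (chromosome 14) had an H3K27ac peak of 2.89-fold in replicate 1 over 577 bases of each window, and Mir25, Mir93 and Mir106b in Mcm7 had 1 of 3.37-fold over 424 bases. Replicate 2 had no peak in these windows. With 2.5 kb on each side 9 of the 13 carried H3K27ac, and with 5 kb 6 carried H3K27me3 and 11 carried H3K27ac. The nearest base covered in both H3K27ac libraries lay 1.11 kb from Mir17 and 3.8 kb from Mir93.

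The other lists hold loci known from tissues or cells outside the epithelium. For comparison, 26.3% of all 1103 loci carried H3K27ac. Of 10 muscle loci, 4 carried H3K27me3 and 0 carried H3K27ac. Mir1a-1, whose microRNA drives muscle differentiation, had 7.47-fold and 4.72-fold H3K27me3 enrichment, while Mir206, Mir133b and the Mir1a-2 copy had no peak in any library. Of 13 blood and immune loci, 0 carried H3K27me3 and 3 carried H3K27ac, namely Mir142 and Mir142b at 5.81-fold and 3.63-fold and Mir150 at 7.92-fold and 8.73-fold. Beside these, the leukocyte markers Cd79a and Cd68 carried H3K27ac and Ptprc and Itgam did not, and the part of leukocytes in the preparation was not tested.

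Of 8 endothelial and stromal loci, 4 carried H3K27me3, 3 carried H3K27ac and 2 carried both. With peaks of −log10 q of at least 2, 0 carried H3K27me3 and 0 carried H3K27ac. Single libraries differed for H3K27ac, with peaks at 6 of the 8 in replicate 1 and 3 in replicate 2. The 2 with both marks were Mir126a and Mir126b in Egfl7, which overlap each other. They had 2.89-fold and 2.93-fold H3K27me3 enrichment and 4.76-fold and 3.31-fold H3K27ac enrichment, with 0 bases covered in all 4 libraries. Of 11 loci of liver, pancreas and gut, only Mir375, a microRNA of endocrine cells, carried a mark in both libraries, and it carried both marks, at 4.82-fold and 3.66-fold H3K27me3 enrichment and 5.24-fold and 4.59-fold H3K27ac enrichment. In single libraries, Mir192 and Mir194-2 had an H3K27me3 peak of 3.35-fold over 693 bases in replicate 1, and Mir192 had an H3K27ac peak of 3.07-fold over 113 bases in replicate 2. Of 14 loci of the pluripotent cell list, 6 carried H3K27me3 and 0 carried H3K27ac. These 6 were at the start of the Mir290 cluster, under peaks of 5.21-fold and 3.66-fold, and the 5 loci of the Mir302 cluster in Larp7 had no peak in any library.

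Imprinted clusters are expressed from 1 parental allele. The Dlk1-Dio3 region of chromosome 12 held 61 loci, of which 14 carried H3K27me3 and 0 carried H3K27ac. Neither H3K27ac replicate had a peak at any of them. Of the 20 loci between 81.2 and 154.9 kb from the end of Dlk1, 13 carried H3K27me3, with peaks at 18 in replicate 1 and 15 in replicate 2. Of the 40 loci between 218.9 and 284.5 kb, 0 carried it by the rule of both libraries, with peaks at 13 in replicate 1 and 0 in replicate 2. The lack of H3K27me3 calls in the distal stretch thus rests on replicate 2. Of the 13 proximal loci, 8 lay in 1 group of overlapping windows, from Mir337 to Mir136. Enrichment in the proximal stretch was low, at 4.4-fold and 3.73-fold for Mir341 and 2.99-fold and 3.06-fold for Mir337. With peaks of −log10 q of at least 2, 3 of the region's 61 loci carried H3K27me3, and at 5, 0 did. Mir1247, 814.7 kb from Dlk1 and close to Dio3, had 8.95-fold and 5.11-fold over all 2082 bases of its window.

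**Figure D5:**
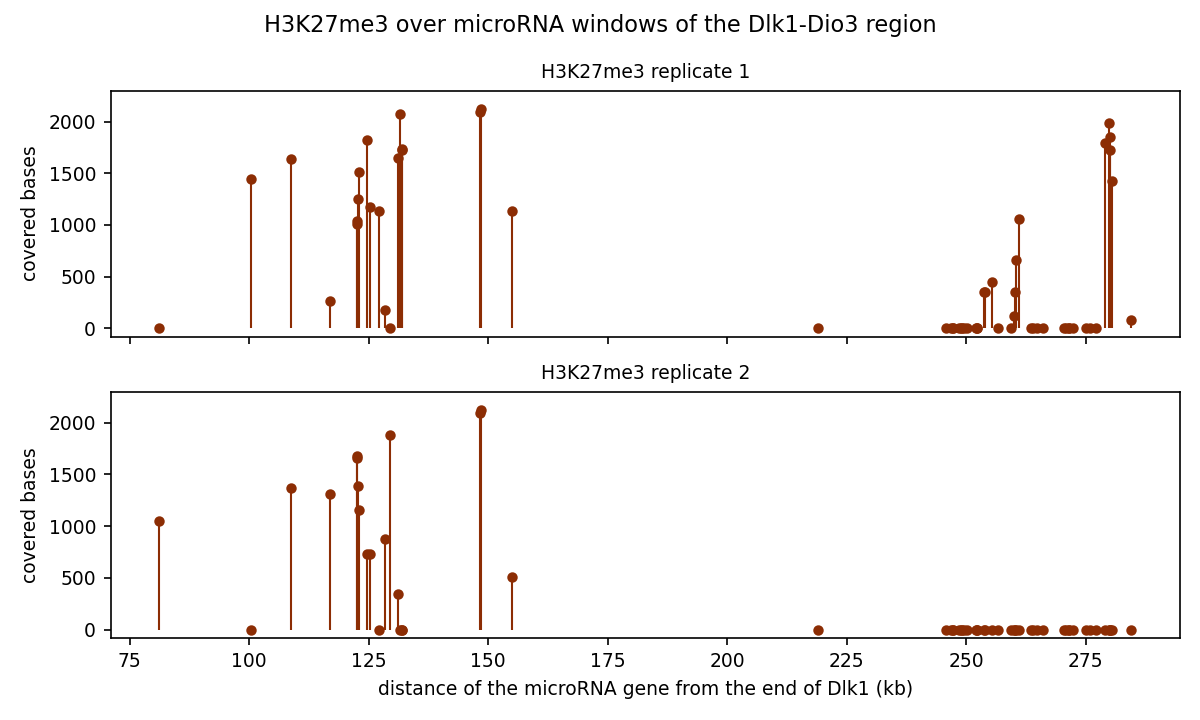
Bases covered by H3K27me3 peaks in the window of each microRNA gene (vertical axis) against distance from the end of Dlk1 (horizontal axis, kb), for replicate 1 (upper panel) and replicate 2 (lower panel), without Mir1247 at 814.7 kb. Loci between 81.2 and 154.9 kb are covered in both replicates at 13 of 20, and those between 218.9 and 284.5 kb are covered at 13 of 40 in replicate 1 and at 0 in replicate 2.

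The Sfmbt2 cluster on chromosome 2, the largest list of loci here, had no peak of either mark in any library at any of its 71 loci. These loci span 51.6 kb, and the span had 0 peaks in each library. The host gene Sfmbt2, itself a Polycomb group gene, had 20 and 19 H3K27me3 peaks elsewhere along its 225 kb, covering 15835 and 17841 bases, and 0 H3K27ac peaks. Its microRNA genes are near-identical repeats, whether reads could be placed uniquely there was not analysed here, and the value 0 is therefore uncertain.

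Genes in separate windows that share a mature strand were compared, as for miR-9. There were 43 such families with 121 loci. H3K27me3 was called at every window group in 4 families, at some in 11 and at none in 28. H3K27ac was called at every window group in 3 families, at some in 8 and at none in 32. Over all 893 groups of windows, H3K27me3 was called in 156 and H3K27ac in 265. The 4 families with H3K27me3 throughout were miR-124, miR-129, miR-196a and miR-219a. The 3 with H3K27ac throughout were miR-24, miR-26a and miR-3074, whose genes have windows that overlap those of miR-24. Mir24-2 lay with Mir23a and Mir27a under an H3K27ac peak of 13.5-fold and 11.7-fold, and Mir24-1 in Aopep had 4.99-fold and 3.97-fold. The miR-26a call rests on little coverage at Mir26a-2, where peaks of 3.01-fold and 2.93-fold covered 1666 bases in replicate 1 and 17 in replicate 2. Neither mark was called at any gene of 21 families. Among these are miR-297a, miR-466b, miR-467a and miR-669a, whose compared genes all lie in the Sfmbt2 cluster, where the lack of peaks is uncertain.

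Of the 13 host gene transcripts, 5 carried H3K27me3 and 6 carried H3K27ac, 2 of them both. The shares were 38.5% and 46.2%, against 39.7% and 69.5% of the widened protein-coding genes. A call needs only 1 covered base, and some of these windows are long, with 240660 bp for Mir100hg. Mir100hg carried H3K27ac over 2.89% and 3.11% of its window, and Mir99ahg over 1.17% and 1.36%. Mir9-3hg was covered over 75.7% and 82.5% of its window in the H3K27me3 replicates and over 3.55% and 0.87% in the H3K27ac replicates. Mir22hg, the transcript of a microRNA active in many tissues, had 0 covered bases of H3K27me3 and 61.1% and 49.4% of its window covered in the H3K27ac replicates. Around the first start of each, the same contrast held: all 2001 bases within 1 kb were covered by H3K27me3 in both replicates and none by H3K27ac at Mir9-3hg, and the reverse held at Mir22hg.

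The promoters of these transcripts are shown for that contrast, from 250 bases before to 50 after the start, with the dinucleotide CG in capitals (RefSeq, GRCm38.p6). CG reads the same on both strands and was counted once for each position.
Mir9-3hg (chr7:79499776-79500075, plus strand): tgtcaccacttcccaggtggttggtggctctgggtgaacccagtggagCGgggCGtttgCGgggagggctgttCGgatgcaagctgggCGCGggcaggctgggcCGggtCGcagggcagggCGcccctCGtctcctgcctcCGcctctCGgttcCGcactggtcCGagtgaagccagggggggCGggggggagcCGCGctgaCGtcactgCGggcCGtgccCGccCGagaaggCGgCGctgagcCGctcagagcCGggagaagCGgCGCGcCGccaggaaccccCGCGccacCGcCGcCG
Mir22hg (chr11:75461289-75461588, plus strand): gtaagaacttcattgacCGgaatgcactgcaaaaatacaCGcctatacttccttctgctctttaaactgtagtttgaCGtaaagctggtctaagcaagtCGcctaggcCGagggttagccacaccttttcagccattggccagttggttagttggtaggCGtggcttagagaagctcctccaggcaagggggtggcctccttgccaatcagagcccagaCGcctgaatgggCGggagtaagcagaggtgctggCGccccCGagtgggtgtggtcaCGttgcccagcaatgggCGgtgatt
The Mir9-3hg promoter held 35 CG in 300 bases, a number reached by 6.95% of the 32851 promoters of the table, and the Mir22hg promoter held 12, reached by 39.6%. At least 1 CG was present in 94.6% of these promoters, with a median of 7.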

How the data were processed

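Reads were processed with MACS2, Bowtie, Picard and fastp on GRCm38 (mm10), per the submitters' processing notes; their versions and settings are not given in the sources used here. For every library the authors called broad peaks separately, and they deposited for each peak a fold enrichment over background (a linear ratio), a −log10 p, a −log10 q and a score, which is the −log10 q multiplied by 10. The smallest −log10 q was about 1 in each list, a q threshold of 0.1. Input libraries were not analysed here, and depth is unknown, so no interval is given.

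Windows, coverage and ranks were computed in Python 3.11.15 with pandas 2.3.3 and numpy 2.4.6, and the scoring was checked on simulated peaks. Gene positions, transcript starts and sequences came from RefSeq tables of GRCm38.p6. The start table used here holds no chromosome 18 and not every gene, so distances are upper limits, and such loci are in no class of distance. The members, lists and named loci were chosen with earlier results of these data known. Named were the 12 best mean ranks of fold per mark, 1 per window group, the 8 best with both marks, 13 lists by role, copies of a shared mature strand and the longest run per mark, in all 330 loci. Only mean coverage per library was tested, by exact permutation, since loci are not replicates. Equal replicate numbers do not pair libraries, because by the labels a single input serves replicate 1 of H3K27me3 and replicate 2 of H3K27ac. The count over the whole list of globose basal cell markers is not reported here.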

Additional observations from a re-analysis of the deposited data

Results flagged for a closer look

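The difference between loci inside and outside protein-coding genes had opposite signs in the 2 marks in every library. Inside minus outside, it was -2.62 and -3.72 percentage points in the H3K27me3 replicates and 11.8 and 7.85 points in the H3K27ac replicates. Tiled windows gave 1.72 points for H3K27me3 and 7.41 points for H3K27ac. Where both libraries were required, loci gave -3.7 and 6.22 points, so for H3K27ac loci and tiled windows had the same sign. The H3K27ac difference reversed to -2.08 points under the strictest peak threshold, and without flanks it was -1.05 points. For both marks the sign also changed between classes of distance from protein-coding starts. Whether the marks differ in this contrast was not tested.

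Chromosome X was outside the set of loci. Of its 90 microRNA genes widened in the same way, 11 and 5 had a peak in the H3K27me3 replicates, and 5 and 5 had one in the H3K27ac replicates. H3K27me3 was found in both replicates at 4 of the 90 and H3K27ac at 5. The tiled windows cover the autosomes only, and no background share was computed for chromosome X. Whether its microRNA loci differ from autosomal loci was therefore not tested. The cluster of Mir351, Mir503 and Mir322 had H3K27me3 peaks in both replicates and no H3K27ac peak.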

How the results depend on the processing

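Counts depended most on the peak threshold, on requiring both libraries and on the width of the window. The 192 loci with H3K27me3 became 101 with peaks of −log10 q of at least 2 and 28 at 5, 371 with a peak in either library, 117 without flanks and 318 with flanks of 5 kb. The tiled H3K27me3 share was 2.34% and 0.422% at the 2 stricter thresholds. The 290 loci with H3K27ac became 151 at a −log10 q of 5, 446 in either library and 511 with 5 kb. The tiled H3K27ac share at a −log10 q of 5 was 2.1%. The 66 loci with both marks became 34 and 3 at the stricter thresholds, 187 in either library, 29 without flanks, 102 with 2.5 kb and 174 with 5 kb. Leaving out 1 library gave 212 to 351 loci with H3K27me3, the 351 without replicate 2, 331 to 405 with H3K27ac, and 70 to 129 with both. The H3K27me3 difference inside minus outside (-3.7 points) was -5.84 with at least 500 covered bases, -6.04 at a −log10 q of 2, -2.64 in either library, -5.9 without flanks, -2.89 over microRNA gene types only, and -3.72 to -2.62 with 1 library left out. The H3K27ac difference (6.22 points) was 2.83, 0.21, 13.4 and, reversed, -1.05 under the first 4 of these settings, 10.8 with 2.5 kb, 17.4 with 5 kb, 7.85 to 11.8 with 1 library left out, and reversed, -2.08, at a −log10 q of 5, and the cause was not tested. Counting each group of overlapping windows once gave 156 with H3K27me3 and 265 with H3K27ac. Of the 330 named loci, the 76 with H3K27me3 lost 24 and 56 at the 2 stricter thresholds, and the 62 with H3K27ac lost 11 and 23. The fit of mean coverage without host transcripts was chosen after seeing the data. With the replicate number as a block, also chosen after seeing the data, the difference in mean coverage was the same -51.4 bases, with an exact permutation p of 0.5, the smallest that 2 pairs can give. The replicate numbers do not pair the libraries, and no block was fitted to the counts.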
